A study of Mus musculus with 90 samples.

Results

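The regions described here are the places on the autosomes where an Mll2 peak was listed with only 1 of 2 antibodies against the same protein. Mll2 was precipitated from mouse embryonic stem cells with the homemade antibodies 9172 and 9175, called serum 9172 and serum 9175 below, and each gave 1 sequencing library and 1 peak list. Of 25519 autosomal peaks of serum 9172, 4934 were not touched by any peak of serum 9175, and of 25903 autosomal peaks of serum 9175, 5860 were not touched by any peak of serum 9172. These 10794 single-serum peaks were chosen by overlap between the 2 called lists, with an overlap of at least 1 bp counting as shared. A list holds only peaks that passed the calling limit, so this choice is not independent of peak strength. They were compared with each other, and with the 20585 peaks of serum 9172 and 20043 peaks of serum 9175 that the other list overlapped.

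Mll2 is a histone methyltransferase of the COMPASS family that places methyl groups on lysine 4 of histone H3. Menin is a partner protein found in complexes of Mll2 and of its close relative Mll1, where it helps to bring the enzyme to chromatin. Trimethylation of that lysine, H3K4me3, marks active promoters and, in embryonic stem cells, also the promoters of many developmental genes that are silent but poised. A second antibody against the same protein is a usual control in chromatin immunoprecipitation (ChIP), because each antibody can also bring down unrelated material.

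The study comprises 90 samples from mouse embryonic stem cells and embryoid bodies, and peak lists of 5 ChIP-seq libraries were used here. Both Mll2 libraries and the Menin library, made with a commercial Menin antibody, were labelled as wild-type cells. The 2 H3K4me3 libraries, numbered 1 and 3 and made with homemade antibody 28, came from wild-type cells that carried a control hairpin against GFP. V6.5 is the line that the growth protocol names, and it was kept in medium with serum and LIF. The H3K4me3 overlaps therefore set cells with no hairpin named beside cells that carried one. With 1 library per serum there was no spread between replicates to test against, so no test was made, and the intervals below are 95% intervals that cover counting error only.

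The libraries differed in depth and in fragment length as well as in the antibody. Serum 9172 kept 19584961 tags after duplicates were removed and serum 9175 kept 13739094, a ratio of 1.43, against the same input of 20878021 kept tags. The fragment length that the peak caller estimated was 128 bp for serum 9172 and 167 bp for serum 9175, a ratio of 1.30. Of the kept tags, 9.58% lay in autosomal peaks with serum 9172 and 12.3% with serum 9175. A difference between the sera cannot be told apart from these differences between their libraries.

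The single-serum peaks were mostly the weak ones of their list. Serum 9175 overlapped 80.7% (80.2 to 81.1%) of the serum 9172 peaks and missed 19.3%. Serum 9172 overlapped 77.4% (76.9 to 77.9%) of the serum 9175 peaks and missed 22.6%. When each list was ranked by tags per kb, the ChIP tags of a peak divided by its length, 54.0% of the weakest decile of serum 9172 peaks were missed by the other serum, 14.4% of the fifth decile and 0.274% of the strongest decile. For serum 9175 the same shares were 66.1%, 17.2% and 0.425%. In both lists nearly all single-serum peaks thus fell in the weaker part of the ranking, and from the seventh decile upwards at most 2.66% of the peaks were missed. Members were chosen by absence from a called list, so their weakness is not independent of that choice.

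**Figure D1:**
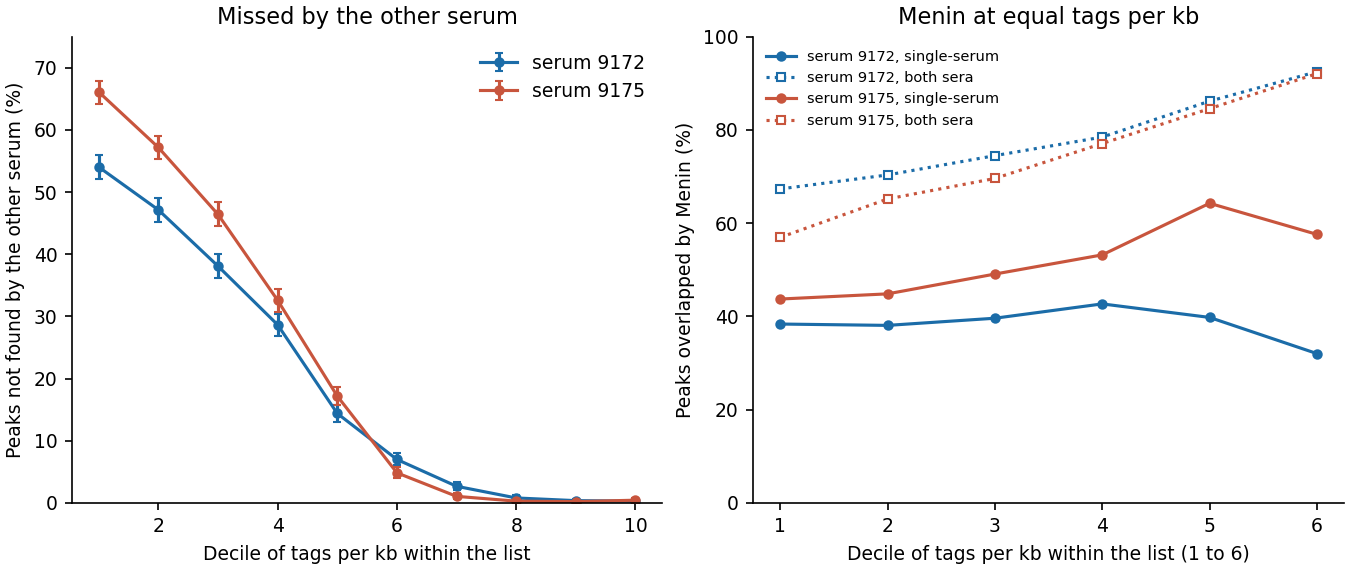
Left, the share of peaks that the other serum missed (y axis, percent, with Clopper-Pearson 95% bars) in each decile of tags per kb within its own list (x axis, 1 is weakest). It falls from 54.0% and 66.1% to under 1% in both lists. Right, the share of peaks overlapped by Menin in deciles 1 to 6, with filled circles for single-serum peaks and open squares for peaks of both sera. In each of these deciles the open squares lie above the filled circles of the same colour.

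Within the single-serum sets the peak heights were narrowly distributed. The serum 9172 set had a median of 42.0 tags per kb (quartiles 39.2 and 46.1) from a median of 21 tags, and the serum 9175 set a median of 31.3 tags per kb (29.1 and 34.4) from a median of 19 tags. The ratio of the medians was 1.34 (1.33 to 1.35) in favour of serum 9172, beside a depth ratio of 1.43. Once tags per kb were divided by the kept tags of the library and given per 1000000 kept tags, called scaled tags per kb below, the order turned: the medians were 2.14 with serum 9172 and 2.28 with serum 9175, a ratio of 1.06 (1.05 to 1.07) in favour of serum 9175. Peaks of both sera showed the same pair of results, with medians of 63.5 and 50.7 tags per kb and of 3.24 and 3.69 scaled tags per kb. Fold enrichment, as deposited, is the ratio that the peak caller gives between a peak and its estimated background. Its single-serum medians were 7.57 and 8.15, and its medians at the peaks of both sera were 13.3 and 15.5.

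Most single-serum peaks were also near the calling limit. The authors' score, minus 10 times the log10 of the p-value, has a minimum of 50 in these lists, and its median was 66.0 in the serum 9172 set and 66.2 in the serum 9175 set. It was under 60 in 36.9% and 37.7% of the peaks and at least 100 in 15.3% and 16.6%. Peaks of both sera had median scores of 279 and 295. The score depends on depth, and both single-serum sets were crowded at the shared minimum, so their like medians do not show that the sets were alike.

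**Figure D2:**
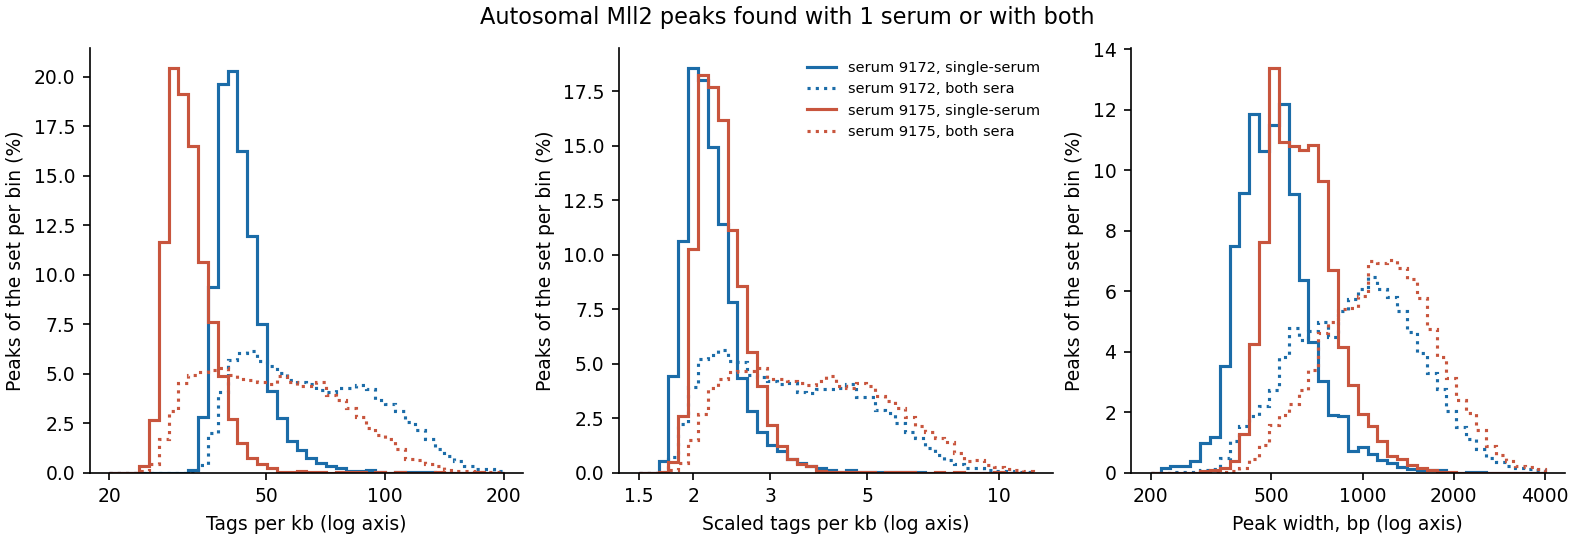
Histograms of the 4 sets over tags per kb, scaled tags per kb (per 1000000 kept tags) and peak width in bp (x axes, log scale; y axis, percent of the set in each bin), solid for single-serum peaks and dotted for peaks of both sera. The solid lines stand apart in tags per kb (medians 42.0 and 31.3), nearly coincide in scaled tags per kb (2.14 and 2.28) and stand apart in width (503 and 620 bp). The fewer than 1% of peaks beyond an axis are not drawn.

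Single-serum peaks of serum 9175 were wider. Their median width was 620 bp (614 to 626), against 503 bp (499 to 509) with serum 9172, a ratio of 1.23 (1.21 to 1.25). At peaks of both sera the widths were 1157 and 982 bp, a ratio of 1.18. The ratio of the fragment lengths, 1.30, was larger than either, and when width was divided by the fragment length of its library the order of the single-serum sets turned, with a log2 ratio of serum 9172 over serum 9175 of 0.08 in place of -0.30. This division was chosen after the data had been seen.

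Menin and H3K4me3 marked far fewer single-serum peaks than shared ones, and more of those of serum 9175 than of serum 9172. Menin overlapped 1918 of the 4934 serum 9172 peaks, 38.9% (37.5 to 40.2%), and 2822 of the 5860 serum 9175 peaks, 48.2% (46.9 to 49.4%), a difference of 9.28 points (7.41 to 11.1). Over all autosomal peaks Menin overlapped 79.3% with serum 9172 and 79.7% with serum 9175. At the peaks of both sera it overlapped 89.0% and 88.9%, a difference of -0.152 points (serum 9175 minus serum 9172; -0.763 to 0.458). The shared sets were mostly the same places, since 18729 pairs of their peaks overlapped each other and nothing else. Their Menin shares were thus near each other by construction, and their interval treats them as separate peaks. For this reason the small difference between the shared sets cannot be weighed against that between the single-serum sets.

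H3K4me3 followed the same order with smaller differences, but this order turned when peaks counted as shared by summits within 500 bp. By that rule the differences, serum 9172 minus serum 9175, were 3.18 points for both H3K4me3 libraries and 0.343 for at least 1, and the Menin difference was -2.77 points. A peak of at least 1 H3K4me3 library overlapped 29.3% (28.0 to 30.6%) of the serum 9172 set and 35.5% (34.3 to 36.7%) of the serum 9175 set, against 74.3% and 73.7% of all autosomal peaks. Library 1 alone overlapped 28.6% and 34.7% (73.8% and 73.1% of all), and library 3, with fewer peaks, 18.0% and 21.3% (66.8% and 65.4% of all). Peaks of both H3K4me3 libraries overlapped 17.3% and 20.4%, against 66.2% and 64.9% of all. By overlap of at least 1 bp the differences, now as serum 9175 minus serum 9172, were 6.21 points (4.44 to 7.97) for at least 1 library. For both libraries the difference in this direction was 3.14 points (1.65 to 4.61), opposite in order to the summit rule. At the peaks of both sera the share with at least 1 library was 85.1% and 84.8%.

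**Figure D3:**
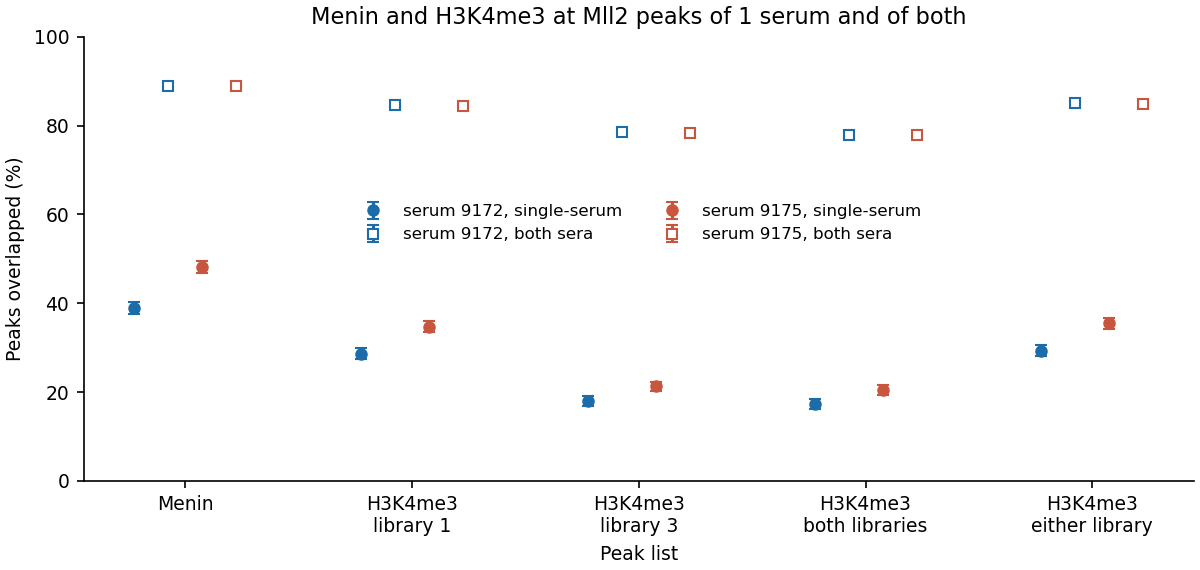
Percent of peaks (y axis, with Clopper-Pearson 95% bars, mostly smaller than the symbols in the shared sets) overlapped by each Menin or H3K4me3 list (x axis). Open squares, peaks of both sera, lie between 77.9 and 89.0% and nearly coincide for the 2 sera; filled circles, single-serum peaks, lie between 17.3 and 48.2%, with serum 9175 above serum 9172 in each list.

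The lower overlap of single-serum peaks was also seen at equal tag density. In the weakest decile of serum 9172 peaks, Menin overlapped 38.4% of those that serum 9175 missed and 67.3% of those it found. In the fifth decile the shares were 39.8% and 86.2%. With serum 9175 they were 43.7% and 56.9% in the weakest decile and 64.3% and 84.6% in the fifth. Among missed peaks of serum 9175 the Menin share was higher in the fifth decile than in the weakest, while among those of serum 9172 it stayed between 32.0 and 42.7% over deciles 1 to 6. Missed peaks were narrower at equal density, with a median of 594 bp against 812 bp in the fifth decile of serum 9172 and 784 against 947 bp in that of serum 9175.

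Width moved with the overlap, so the sets were compared within bands of width. In quartiles of width over the 2 single-serum sets together, the Menin difference (serum 9175 minus serum 9172) was 1.58 points in the narrowest (-2.59 to 5.92), 1.14 in the second (-2.60 to 4.86), -3.91 in the third (-7.80 to -0.0283) and 12.6 in the widest (8.10 to 17.0). In the widest quartile, peaks of 686 to 2545 bp, Menin overlapped 61.1% of 2075 serum 9175 peaks and 48.6% of 624 serum 9172 peaks. Only in the widest quartile did the interval lie above 0, in the third it lay below 0, and in the 2 narrower quartiles it spanned 0. The sets also filled the quartiles unequally, with 591 serum 9175 peaks and 2108 serum 9172 peaks in the narrowest. Taken as serum 9172 minus serum 9175, the Menin difference was -2.84 points within width quartiles, against -9.28 over the whole sets. For peaks of both H3K4me3 libraries the 4 differences were -0.146, 0.721, -1.09 and -3.57 points, each with an interval that spanned 0. For at least 1 library they were 2.00, 4.71 (1.30 to 8.07), -1.06 and -1.86 points, and only the second interval lay above 0. These intervals cover counting error over peaks of 1 library per serum, and widths still differed within the open-ended widest quartile. Within quartiles of scaled tags per kb, the Menin difference was 7.46, 4.85, 5.47 and 16.4 points, positive in each. Counting a peak only where its summit lay inside a Menin peak gave 35.9% with serum 9172 and 44.8% with serum 9175. This measure was added after the data had been seen and does not hold width equal between the sets.

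**Figure D4:**
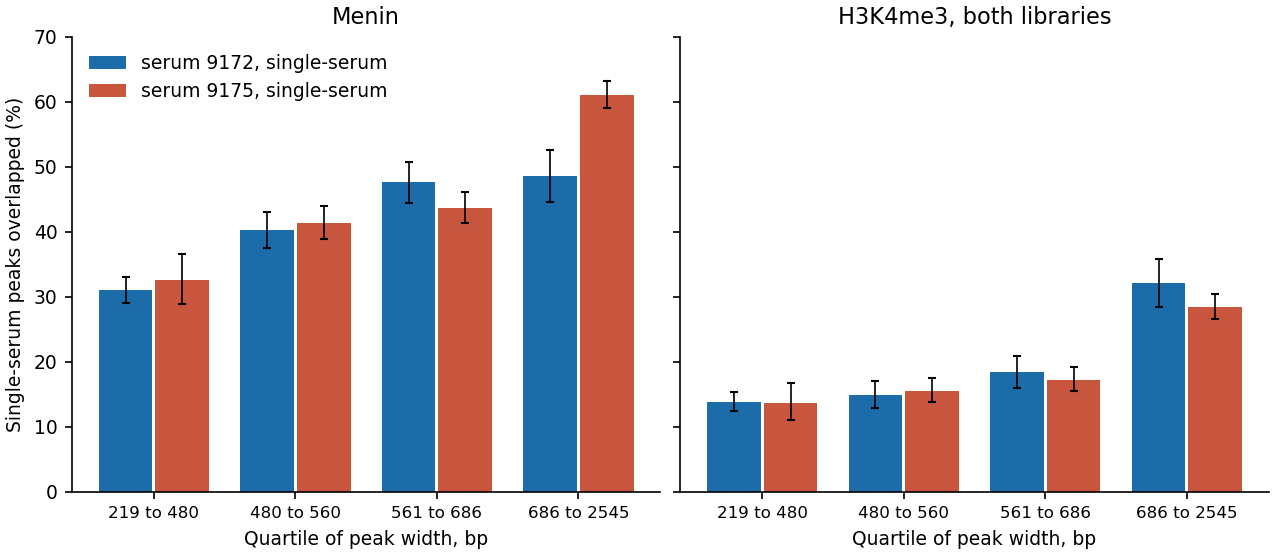
Percent of single-serum peaks (y axis, bars from 0 with Clopper-Pearson 95% intervals) overlapped by Menin (left) and by both H3K4me3 libraries (right), by quartile of width in bp over the 2 sets together (x axis). The Menin bars of the sera part in the widest quartile, 48.6% against 61.1%, and the H3K4me3 bars have overlapping intervals in each quartile.

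Sorted by both marks, the largest class of each set was that with neither. Neither Menin nor H3K4me3 of any library overlapped 2467 serum 9172 peaks, 50% (48.6 to 51.4%), and 2466 serum 9175 peaks, 42.1% (40.8 to 43.4%), almost the same number. Both marks overlapped 896 serum 9172 peaks (18.2%) and 1508 serum 9175 peaks (25.7%). Menin without H3K4me3 held 20.7% and 22.4%, and H3K4me3 without Menin 11.1% and 9.76%. At the peaks of both sera 81.4% and 81.1% had both marks and 7.30% and 7.41% neither. The serum 9175 set was thus the larger one through peaks with marks, and not through peaks with neither.

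The H3K4me3 peaks under single-serum Mll2 peaks had lower folds than those of their whole list, while the Menin peaks were near the median of theirs. Menin peaks there had a median fold of 8.94 in each set, against 11.4 under shared peaks and 9.19 over the whole list. H3K4me3 peaks of library 1 had a median fold of 12.8 under the serum 9172 set and 11.1 under the serum 9175 set, against 44.0 and 43.9 under shared peaks and 23.2 over the whole list. Where a single-serum peak met a Menin peak, the summits lay a median of 137 bp apart with serum 9172 and 156 bp with serum 9175, close to the 152 and 146 bp at shared peaks.

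A few single-serum peaks had a high fold, and these mostly had neither mark. Fold enrichment reached 20 in 38 serum 9172 peaks and 17 serum 9175 peaks. Of these, 28 (73.7%) and 13 (76.5%) had neither Menin nor H3K4me3, and none of either set met H3K4me3 of both libraries. Among the shared peaks of the same fold, 0.634% of 5521 with serum 9172 and 0.221% of 6801 with serum 9175 had neither mark. With a fold of at least 15 the single-serum sets held 102 and 73 peaks, of which 62.7% and 54.8% had neither mark. Strength by score gave another picture: of the 756 serum 9172 peaks and 971 serum 9175 peaks with a score of at least 100, 41.3% and 24.0% had neither mark. Menin overlapped 45.8% and 67.3% of them, above the 38.9% and 48.2% of the whole sets. Peaks with such scores were also wider, with medians of 683 and 869 bp.

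The peak with the highest fold in the serum 9172 set was chr2:31146876-31147440 (coordinates of mm9, the build that the submitters' processing notes name), with 69 tags (53.7 to 87.3), 122 tags per kb and a fold of 44.8. It was followed by chr1:164545472-164546273, with 102 tags and a fold of 37.3, and chr12:113790100-113790677, with 62 tags and a fold of 32.8. Of the 5 highest, only the one on chromosome 12 met another list, a Menin peak with a fold of 14.3. The nearest serum 9175 peak lay 5852 bp away for the first and 43615 bp for the second, so neither lay beside a serum 9175 peak.

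In the serum 9175 set the highest was chr8:95137266-95137901, with 88 tags (70.6 to 108), 138 tags per kb and a fold of 54.6, at 59347 bp from the nearest serum 9172 peak. Next were chr9:115618921-115619782, with 86 tags and a fold of 49.7, and chr6:124729417-124730460, with 115 tags and a fold of 46.3. The peak on chromosome 6 met a Menin peak with a fold of 8.94 and an H3K4me3 peak of library 1 with a fold of 5.2. The fourth, chr19:29439357-29440260 with a fold of 44.8, met no list, and the fifth, chr15:99210751-99211979 with a fold of 41.2, met H3K4me3 of library 3 alone at a fold of 10.3. No sequence or gene annotation of this build was used here, so these regions are given by position.

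Ranked by tags per kb instead, the 5 highest of each set mixed sites of low enrichment over input with sites of the highest folds. With serum 9172, ranks 3 to 5 were peaks already among the 5 highest by fold, with folds of 37.3, 31.3 and 44.8, and the second was chr11:53953453-53954492, with 136 tags at a fold of 5.84. With serum 9175, the fifth was the peak with the highest fold, and the other 4 had folds of 2.07 to 5.38. The site chr15:74915736-74917554 had 1111 tags with serum 9172, 611 per kb, at a fold of 3.36. With serum 9175, chr2:98502273-98503266 had 807 tags, 812 per kb, at a fold of 2.56, and the nearby chr2:98506277-98507608 had 1014 tags at a fold of 2.07. Those on chromosome 2 lay 1194625 and 1198629 bp from the nearest serum 9172 peak. Tags per kb divided by fold, a rough measure of the background used by the peak caller, reached 182 in the serum 9172 set and 368 in the serum 9175 set, against medians of 5.45 and 3.85. Folds under 5 were listed for 76 serum 9172 peaks and 32 serum 9175 peaks.

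Single-serum peaks that did carry Menin and both H3K4me3 libraries were moderate in height. The strongest by fold with serum 9172 was chr9:40204513-40205289, with 48 tags and a fold of 17.2, over Menin at 10.3 and H3K4me3 at 13.8 and 6.95. With serum 9175 it was chr8:50691743-50692361, with 30 tags and a fold of 17.1, over Menin at 8.13 and H3K4me3 at 15.9 and 21.6. A contrasting case was the serum 9172 peak chr5:110273707-110274379, which had 41 tags and a fold of 16.4 over H3K4me3 folds of 52.7 and 59.8, and lay 1643 bp from the nearest serum 9175 peak. The widest serum 9175 peak of the set, chr10:80607664-80609587 with 1924 bp, met H3K4me3 at folds of 75.6 and 96.5 and lay 793 bp from a serum 9172 peak.

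Some single-serum peaks lay close to a peak of the other serum. The nearest peak of the other serum lay a median of 8470.5 bp away from serum 9172 peaks and 10618 bp from serum 9175 peaks. It was within 1 kb for 16.1% (15.1 to 17.2%) and 13.4% (12.6 to 14.3%). Those near peaks carried Menin in 57.4% and 74.3%, against 35.3% and 44.1% of the more distant ones. The higher Menin share with serum 9175 was thus present at both distances, but width was not held equal between the sets. Of the serum 9172 peaks on an H3K4me3 peak of library 1, 27.6% of 1413 had a serum 9175 peak elsewhere on that same H3K4me3 peak, and for serum 9175 it was 18.8% of 2031.

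Few members depended on a handful of bases. The gap to the other list was at most 10 bp for 14 serum 9172 peaks and 6 serum 9175 peaks, the closest being 1 bp, as at chr5:128120031-128120550 with serum 9172 (19 tags, fold 6.71) and chr8:123638781-123639670 with serum 9175 (33 tags, fold 6.94). Just inside the limit, the smallest overlap of a one-to-one pair was 1 bp, at chr12:4357730-4358528, with folds of 7.32 and 9.02. Overlaps of at most 10 bp made up 5 of the 18729 one-to-one pairs, whose median overlap was 933 bp.

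The order of the single-serum sets was alike along the genome. The Menin share was higher in the serum 9175 set on 19 of 19 autosomes, by 2.78 to 20.9 points. The share with H3K4me3 of at least 1 library was higher on 17, and the difference ran from -2.96 to 13.9 points. The median width was larger with serum 9175 on 19 of 19. The chromosomes share the same 2 libraries and are not replicates, and the shares were not compared at equal width within them.

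Where both sera listed a peak, the tag densities of the 2 peaks were set side by side. There were 18729 regions in which 1 peak of each serum overlapped the other and nothing else. In addition, 816 serum 9175 peaks covered at least 2 serum 9172 peaks, and 317 serum 9172 peaks covered at least 2 of serum 9175. Each density was taken over the peak as called with that serum, not over a common region, and the serum 9175 peak was wider by a median ratio of 1.14. The ratio of serum 9175 to serum 9172 in scaled tags per kb had a median of 1.12 (quartiles 0.988 and 1.27) and was above 1 in 73.0% of the pairs. It was 1.07 in the weakest decile by level and 1.17 in the strongest. It was 1.13 at the 15155 pairs with Menin and H3K4me3 and 1.06 at the 1410 pairs with neither. Level, the geometric mean of the scaled tags per kb of the 2 peaks, differed between these classes, with medians of 3.97 and 2.36. The ratio was not compared between the classes at equal level.

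Large differences at shared peaks were rare and differed in their marks by direction. A ratio of at least 2 in favour of serum 9175 was reached by 46 pairs, 0.246% of all, and 42 of them (91.3%, 79.2 to 97.6%) had Menin. A ratio of at least 2 in favour of serum 9172 was reached by 32 pairs, 0.171% of all, and 15 of them (46.9%, 29.1 to 65.3%) had Menin. Over all pairs the Menin share was 88.9%. Both groups lay at higher levels, with medians of 6.12 and 4.48 against 3.52 over all pairs. In level deciles 7 to 10, with median levels of 4.29 to 6.85, Menin was present at 98.9 to 99.5% of the pairs. The shares of 91.3% and 46.9% were both below that range. In the 46 and 32 pairs, H3K4me3 of at least 1 library was present at 91.3% and 37.5%, against 84.5% of all pairs. At a ratio of 1.5 the counts were 984 (5.25%) and 238 (1.27%), with Menin at 90.9% and 73.9%. Relative to the median ratio of the pairs, a scaling that takes the shared peaks as equal, the counts beyond 2-fold were 26 toward serum 9175 and 77 toward serum 9172, so which direction held more pairs turned with the scaling. The Menin shares were then 92.3% and 62.3%. Pairs higher with serum 9172 thus had the lower Menin share at both limits by kept tags and at the 2-fold limit relative to the median ratio. They were also narrower: by kept tags, the serum 9172 peak had a median width of 694 bp in the 32 pairs, 1093.5 bp in the 46 and 994 bp over all pairs. Menin was not compared at equal level or equal width among these pairs.

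**Figure D5:**
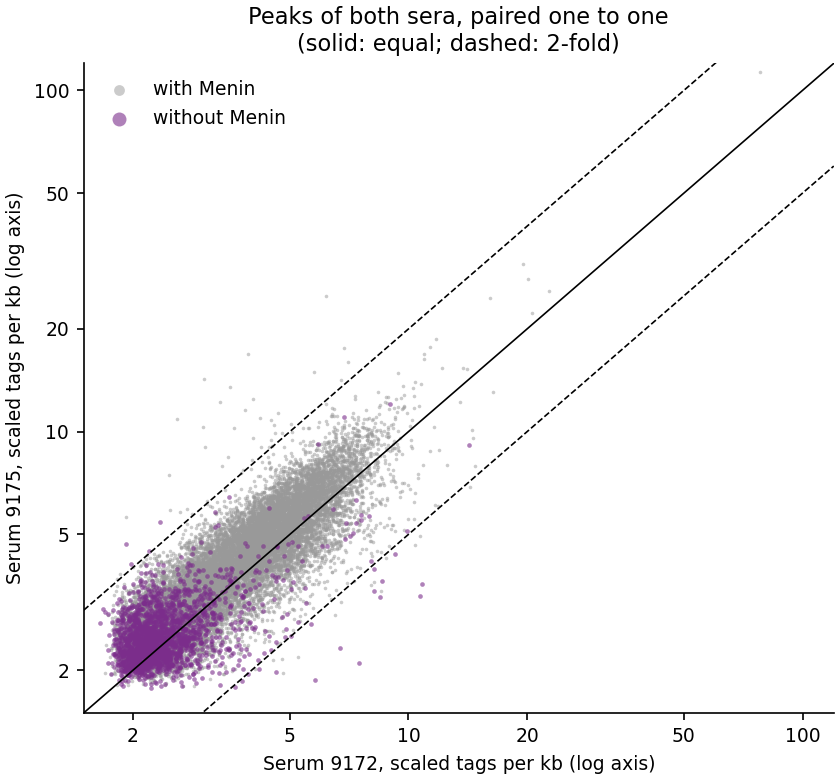
Scaled tags per kb (per 1000000 kept tags) with serum 9172 (x axis) and serum 9175 (y axis), both on log axes, for 18729 one-to-one pairs, grey with Menin and purple without. The cloud lies slightly above the solid line of equality (median ratio 1.12), 46 points lie on or above the upper dashed 2-fold line and 32 on or below the lower one, where purple points are more frequent.

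The pair most in favour of serum 9175 was chr7:134620936-134623132, with 130 tags at 59.2 per kb with serum 9172 and 495 tags at 196 per kb with serum 9175, a ratio of 4.72 in scaled tags per kb. Its folds were 12.2 and 92.9. It was followed by chr17:34052431-34053523 (76.9 and 232 tags per kb, ratio 4.30) and chr9:21116450-21117043 (50.5 and 149, ratio 4.22), where the serum 9172 peak spanned 594 bp and the serum 9175 peak 1640 bp. The 5 highest ratios lay on 5 chromosomes, and each of these pairs carried Menin, at folds of 6.91 to 11.7, and H3K4me3 of both libraries.

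The pair most in favour of serum 9172 was chr5:66600906-66601533, with 92 tags at 146 per kb with serum 9172 and 23 tags at 28.8 per kb with serum 9175, a ratio of 3.57 in that direction. Its folds were 37.2 and 9.80, and it met neither Menin nor H3K4me3. It was followed by chr12:70461479-70462290 (209 and 45.4 tags per kb, ratio 3.24), which met H3K4me3 of library 1 alone, at a fold of 63.1, and by chr10:121488814-121489306 (114 and 25.8, ratio 3.09). None of the 5 met a Menin peak and 1 met H3K4me3. The 5 pairs at each end of the ratio thus differed in their marks.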

How the data were processed

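Mll2, Menin and H3K4me3 were measured by ChIP-seq in the 5 libraries described above, and samples were grouped by their antibody label or title. The authors called peaks for each library separately with MACS 1.4.2 against an input library, per the file headers, with a p cutoff of 1e-05 and 1 tag kept per position, and without pooling. The submitters' processing notes name Bowtie 0.12.9 and the build mm9. The deposited tag counts per peak are whole numbers that are not normalized. The deposited fold is the ratio that MACS gives between a peak and its estimated background, the deposited score is minus 10 times log10 of the p-value, and the deposited false discovery rate is a percent, used here only as listed. Many deposited folds repeat: 11.6% of the serum 9172 single-serum peaks have a fold of 7.46 and 13.2% of those of serum 9175 a fold of 8.15, so ranks by fold hold ties.

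Peaks of the 19 autosomes were compared by overlap with Python 3.11.15, pandas 2.3.3 and scipy 1.17.1. Shares have exact Clopper-Pearson intervals, differences Newcombe intervals, medians distribution-free binomial intervals and tag counts exact Poisson intervals, all at 95%. A ratio of medians is given with the range that the intervals of both medians allow. Tags of PCR-amplified libraries are not independent molecules, so intervals cover counting error only. The overlap functions were tested on simulated lists. The members, lists and measures were chosen with earlier results of these data known. Named regions are the 5 highest by fold and by tags per kb, the 3 highest by fold with Menin and both H3K4me3 libraries, the 3 widest and the 3 with the smallest gap in each single-serum set, and the 5 highest and 5 lowest ratios and 3 smallest overlaps of the pairs, of which the text gives a selection. Alternatives varied the overlap rule, the score and fold limits, the list lengths, the chromosomes, the scaling and the strata of width and tag density. RNA-seq, 4C-seq and the other ChIP-seq samples were not used here.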

Additional observations from a re-analysis of the deposited data

How the results depend on the processing

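Over 7 results, 71 alternative values were computed: 39 stayed within the counting error of the value reported, 26 moved beyond it and 6 turned direction. The serum 9172 peaks overlapped by serum 9175 and the serum 9175 peaks overlapped by serum 9172 made up 79.4% and 76.5% when 50% of the shorter peak had to be covered, 82.5% and 79.2% with a gap of up to 500 bp allowed, 88.4% and 85.6% at score 100 or above, 88.0% and 78.02% at fold 10 or above, 80.1% and 77.9% for lists of equal length, and 74.7% and 73.4% with summits within 500 bp. The log2 ratio of tags per kb, serum 9172 over serum 9175, was 0.41 at score 100 or above, 0.41 at fold 10 or above, 0.46 within width quartiles, -0.087 for scaled tags per kb and -0.055 for these within width quartiles. The log2 ratio of width was -0.45 at fold 10 or above and 0.082 when divided by fragment length. Differences in overlap are given as serum 9172 minus serum 9175. The Menin difference was -19.2 points at score 100 or above, -13.7 at fold 10 or above, -2.77 with summits within 500 bp and -2.84 within width quartiles. For H3K4me3 of both libraries it was -10.2 at score 100 or above, -15.9 at fold 10 or above, 3.18 with summits within 500 bp, 1.02 within width quartiles and -6.02 with library 1 alone. For at least 1 library it was -15.1, -17.01, 0.34 and -0.946 in the first 4 of these settings. The cause of these moves was not tested. The scaling by kept tags, the division by fragment length, and the width and density strata use other units or weights by construction. The alternatives of a minimum fold of 5, of fragment length, of summits inside a Menin or H3K4me3 peak, of strata for at least 1 H3K4me3 library and of scaled tags within width quartiles were chosen after seeing the data. Depth limits what was listed: a peak absent from a list was not called at that depth. No paired analysis was possible because each serum had 1 library.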

Other observations

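Chromosome X, left out above, held 461 peaks of serum 9172 and 484 of serum 9175. The other serum missed 19.7% (16.2 to 23.7%) and 23.8% (20.0 to 27.8%), close to the autosomal 19.3% and 22.6%. Menin overlapped 36.3% (26.4 to 47.0%) of the 91 single-serum peaks of serum 9172 there and 53.9% (44.4 to 63.2%) of the 115 of serum 9175. H3K4me3 of at least 1 library overlapped 74.7% (64.5 to 83.3%) and 83.5% (75.4 to 89.7%) of them, against 29.3% and 35.5% on the autosomes. Over all peaks of chromosome X the H3K4me3 share was 91.1% and 92.4%, and the Menin share 73.3% and 76.03%. The single-serum peaks of chromosome X had autosome-like medians of 494 and 626 bp and of 2.16 and 2.25 scaled tags per kb. Their H3K4me3 share was not compared with that of the autosomes at equal width or density.

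The nearest peak of the other serum was single-serum about as often as that list as a whole. The serum 9175 peak nearest to a serum 9172 single-serum peak was itself single-serum in 21.9%, beside 22.6% of the serum 9175 list. In the other direction the share was 20.1%, beside 19.3% of the serum 9172 list. In each set, 185 peaks lay within 1 kb of a single-serum peak of the other.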
